A study of Citrullus lanatus with 36 samples.

Results

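The genes described here are the ethylene receptors and the regulators of the EIN3 branch of ethylene signalling in melon fruit flesh. They were taken by the description of the best protein match that the deposited table carries for each gene, which had to read ethylene receptor, ethylene response sensor, ethylene-insensitive protein 2, ETHYLENE INSENSITIVE 3 or EIN3-binding. Of 25121 named genes, 12 carried such a description, and the 10 with the highest mean FPKM (fragments mapped per kilobase of transcript and per unit of library size) over all 36 libraries were kept. The members were thus chosen by their overall level, which is not tested below. They comprised 3 receptors, 1 EIN2 gene, 3 EIN3/EIL transcription factor genes and 3 genes of EIN3-binding F-box proteins. The mean FPKM that chose them ran from 220 for EIL1 at rank 1 to 14.9 for EIL3 at rank 10. The genes just outside had means of 0.158 (an EIL4-like gene) and 0.0061 (an EBF1-like gene).

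RNA-seq of flesh was deposited for 3 genotypes at 4 stages, with 3 libraries for each of the 12 groups. Cmnor is a CRISPR/Cas9 line of the oriental melon cultivar BY9H with a deletion in the NAC domain of the ripening regulator gene CmNOR. CmNOR/Cmnor is the heterozygous F1 of Cmnor and the parental BY9H, and WT is BY9H itself. The stages were 33, 36 and 39 days after pollination (DAP) on the plant and 6 d of storage after harvest at 36 DAP. Stored fruit were thus 6 d older than fruit at 36 DAP, and no fruit of that age on the plant was sequenced. Storage, detachment and age therefore cannot be told apart in the changes over storage. Cmnor is 1 line, and all 3 genotypes share the BY9H background. The labels and methods do not tie a library to a fruit, so the p-values below measure only the spread between these libraries. The deposited labels name watermelon, Citrullus lanatus, as the organism, whereas the gene identifiers and the study are of melon, Cucumis melo. The level of CmNOR itself was not analysed here. An FPKM over a gene with a small deletion does not check the genotype. In bulk tissue, fewer cells of a type and less RNA per cell cannot be told apart.

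In plants, ethylene is perceived by a family of membrane receptors that repress the response while no ethylene is bound. Together with the kinase CTR1 they hold EIN2, a protein of the endoplasmic reticulum, inactive, and binding of ethylene frees EIN2 to act on the nuclear factors EIN3 and EIL1. EIN3-binding F-box proteins (EBFs) mark EIN3 and EIL1 for degradation, and in Arabidopsis thaliana some receptor and EBF genes are themselves induced by ethylene. In climacteric fruit such as many melons, a burst of ethylene accompanies ripening.

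The libraries held an estimated 17.8 M to 36.9 M fragments, lowest in WT at 36 DAP. Of them, 1 fragment on a transcript of 1 kb was worth 0.0271 to 0.0563 FPKM, so that every gene kept was far above the level of single fragments. A ripening flesh list of 49 genes, taken by the same descriptions, summed to at least 288 FPKM in every library, and a seed list of 13 genes to no more than 109.6 FPKM. A list of 33 phloem and exudate genes summed to 2577 to 11453 FPKM in the Cmnor libraries, 82.6 to 3153 FPKM in those of CmNOR/Cmnor and 61.8 to 508.7 FPKM in those of WT. At most 3 of its genes were at 0 throughout a Cmnor group, against 7 to 12 throughout a WT group. Between 24 and 28 of the 33 rose in Cmnor against WT at each stage as deposited, where 39.6 to 48.1% of all genes tested were called higher. The list was not counted under any other scaling of the libraries. A heat shock list of 52 genes summed to 4844 to 11020 FPKM in WT at 36 DAP and to 5079 to 5503 FPKM in Cmnor at 36 DAP. All other groups gave 1633 to 3875 FPKM. A rind and cuticle list of 8 genes summed to means of 16.3, 67.0, 23.7 and 21.7 FPKM in Cmnor at 33, 36 and 39 DAP and after storage, 14.0, 7.02, 6.77 and 84.7 FPKM in the heterozygote, and 20.1, 8.89, 22.4 and 197 FPKM in WT. The part of phloem tissue, of rind and of heat shock in the differences given below was not tested.

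A further property of the table bears on every comparison with Cmnor. Over 8620 genes averaging 10 FPKM or more, the median log2 difference between Cmnor and WT was 0.36, 0.34, 0.20 and 0.33 at 33, 36 and 39 DAP and after storage. Between CmNOR/Cmnor and WT it was -0.07, -0.01, -0.05 and -0.09. Setting the libraries to the same upper quartile, the same median or the same trimmed mean lowered the members' log2 differences between Cmnor and WT by 0.28 to 0.66, and moved those between CmNOR/Cmnor and WT up by no more than 0.13. Directions of the members in Cmnor are therefore given with what they became under these 3 scalings, and shares within a library, which no scaling alters, are given beside them.

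The gene matched to ethylene response sensor 1 (ERS1; MELO3C015961.2, chromosome 1, 32043493 to 32048437, plus strand) belongs to a receptor type that, in Arabidopsis, lacks the receiver domain of ETR1. It set Cmnor apart from both other genotypes at all stages. The Cmnor libraries gave 135, 120.5 and 124 FPKM at 33 DAP, 65.4, 66.3 and 74.9 at 36 DAP, 197, 172 and 199 at 39 DAP, and 154, 122 and 131 after storage. The CmNOR/Cmnor libraries gave 24.7, 25.3 and 24.0 FPKM at 33 DAP, 14.2, 13.0 and 12.8 at 36 DAP, 19.3, 19.5 and 20.0 at 39 DAP, and 11.8, 19.8 and 17.7 after storage. The WT libraries gave 17.6, 21.1 and 16.4 FPKM at 33 DAP, 18.2, 14.8 and 17.7 at 36 DAP, 11.8, 10.8 and 11.3 at 39 DAP, and 17.1, 16 and 14.5 after storage. All 12 Cmnor libraries were above all 24 others, the lowest of them at 65.4 FPKM and the highest library of the other genotypes at 25.3 FPKM. The share of all genes whose libraries separate in this way was not computed, here or for the members below.

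Against WT, mean ERS1 was 6.89 ± 1.0-fold (SD) higher in Cmnor at 33 DAP, 4.07 ± 0.53-fold at 36 DAP, 16.8 ± 1.5-fold at 39 DAP and 8.55 ± 1.28-fold after storage. In a limma model of log2(FPKM + 1) over all 24901 genes above 0, with Benjamini-Hochberg adjustment in each comparison, the log2 differences were 2.73, 1.97, 3.95 and 3.01, each with an SE of 0.12, and the largest adjusted p was 3.09e-14. All 4 stayed called, and higher, under the 3 scalings. In CmNOR/Cmnor the gene was 1.34 ± 0.18-fold higher than in WT at 33 DAP (adjusted p = 0.0138) and 1.74 ± 0.08-fold higher at 39 DAP (adjusted p = 2.7e-05). The log2 differences were -0.32 at 36 DAP (adjusted p = 0.075) and 0.02 after storage (95% interval -0.22 to 0.27). The call at 33 DAP was lost without replicate 1 or replicate 3 of WT, with an adjusted p of up to 0.088.

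**Figure D1:**
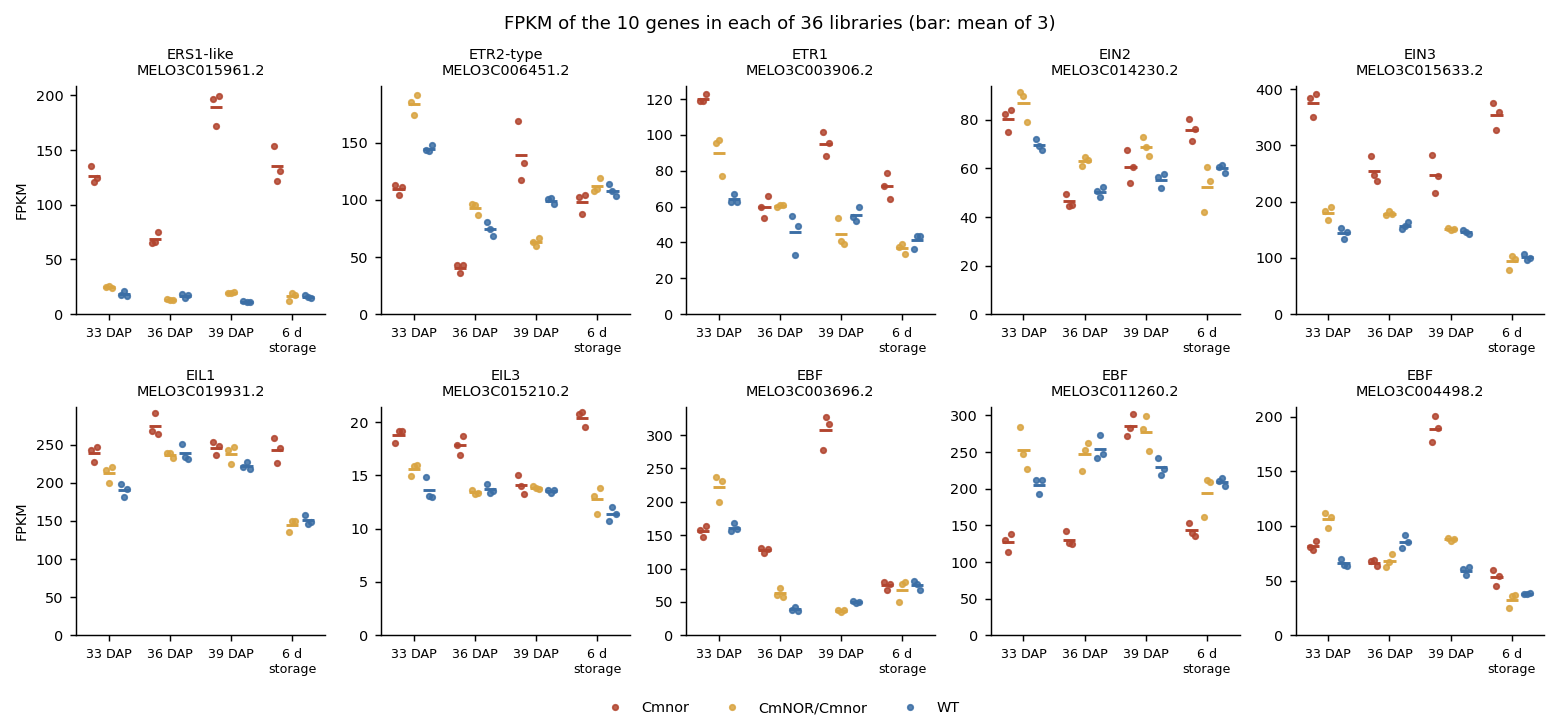
FPKM of the 10 genes in each of the 36 libraries, 1 panel a gene, by stage (33, 36 and 39 DAP and 6 d of storage) and genotype (Cmnor red, CmNOR/Cmnor yellow, WT blue), with bars at the mean of 3 libraries and every vertical axis starting at 0. In the ERS1 panel the 12 Cmnor libraries lie at 65.4 FPKM or more and all others at 25.3 FPKM or less, and in the EIN3 panel the Cmnor libraries also lie apart, at 216 FPKM or more against 191 FPKM or less.

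The receptor whose closest curated match is Arabidopsis ETR2 (MELO3C006451.2, chromosome 6, 3310957 to 3315367, minus strand) was the most abundant of the 3 receptors in WT and took another course. In Arabidopsis, ETR2 is of the receptor subfamily whose histidine kinase motifs are degenerate. Cmnor flesh had 113, 105 and 112 FPKM at 33 DAP, 43.1, 35.9 and 43.1 at 36 DAP, 169, 117 and 132 at 39 DAP, and 103, 87.4 and 105 after storage. The heterozygote had 185, 174 and 192 FPKM at 33 DAP, 96.5, 95.1 and 87.0 at 36 DAP, 63.3, 60.0 and 66.4 at 39 DAP, and 108, 109.6 and 119 after storage. WT flesh had 144, 143 and 148 FPKM at 33 DAP, 80.8, 74.4 and 68.7 at 36 DAP, 100.4, 101 and 95.9 at 39 DAP, and 114, 107 and 103 after storage. The groups of libraries did not overlap at 33, 36 or 39 DAP in either comparison with WT, and at 39 DAP the order of the genotypes was the reverse of that at 33 and 36 DAP, with Cmnor highest and CmNOR/Cmnor lowest.

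In Cmnor the ETR2-type receptor fell by 0.40 at 33 DAP and by 0.86 at 36 DAP on the log2 scale against WT (limma, SE 0.09; adjusted p = 0.000451 and 3.6e-09), called lower under every scaling. At 39 DAP it was higher by 0.47 as deposited (adjusted p = 6.63e-05), a call that none of the 3 scalings kept. After storage the difference was -0.14 (95% interval -0.33 to 0.05) as deposited, and was called lower under all 3 scalings. In CmNOR/Cmnor it rose by 0.34 and 0.31 at 33 and 36 DAP (adjusted p = 0.00789 and 0.0192) and fell by 0.64 at 39 DAP (adjusted p = 5.52e-06), all kept under the 3 scalings. The call at 36 DAP was lost without replicate 3 of WT or replicate 1 or 2 of CmNOR/Cmnor at that stage, with a log2 difference of 0.26 to 0.37 and an adjusted p of up to 0.113.

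ETR1 (MELO3C003906.2, chromosome 5, 20319727 to 20326196, minus strand), the receptor type with an active histidine kinase and a receiver domain, stood at 119, 119 and 123 FPKM at 33 DAP in Cmnor, 60.0, 53.5 and 65.9 at 36 DAP, 102, 88.3 and 95.6 at 39 DAP, and 71.7, 78.8 and 64.3 after storage. Its CmNOR/Cmnor values were 95.5, 97.4 and 77 FPKM at 33 DAP, 59.7, 61.0 and 61.1 at 36 DAP, 53.7, 41.0 and 39.1 at 39 DAP, and 37.7, 39.1 and 33.3 after storage. Its WT values were 62.7, 67.1 and 62.4 FPKM at 33 DAP, 54.8, 32.8 and 49.1 at 36 DAP, 54.1, 52.0 and 59.5 at 39 DAP, and 36.3, 43.7 and 43.6 after storage. All Cmnor libraries were above those of WT at 33 and 39 DAP and after storage, whereas at 36 DAP the groups overlapped.

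The log2 differences of ETR1 between Cmnor and WT were 0.90 at 33 DAP, 0.77 at 39 DAP and 0.78 after storage (SE 0.13; adjusted p = 1.1e-06, 1.04e-05 and 9.16e-06). Those at 33 and 39 DAP were called higher under every scaling, and the difference after storage lost its call with libraries set to the same median. At 36 DAP the difference of 0.41 (adjusted p = 0.00866) was lost without replicate 3 of Cmnor or replicate 2 of WT at that stage (log2 0.20 to 0.56, adjusted p up to 0.163), and its sign turned under the median and trimmed mean scalings (-0.22 and -0.10). In CmNOR/Cmnor, ETR1 rose by 0.48 at 33 DAP and 0.43 at 36 DAP (adjusted p = 0.0101 and 0.0245), kept under the 3 scalings. The call at 33 DAP was lost without replicate 2 of CmNOR/Cmnor at that stage (adjusted p = 0.0555), and the call at 36 DAP without replicate 2 of WT or any 1 CmNOR/Cmnor library of the stage (log2 0.22 to 0.58, adjusted p up to 0.263).

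Within each library, the makeup of the receptor pool differed between the genotypes in a way that no scaling can change. ERS1 made up 34.6 to 46.9% of the summed FPKM of the 3 receptors in the 12 Cmnor libraries, with a median of 42.2%, against 7.52 to 16.2% (median 8.44%) in the CmNOR/Cmnor libraries and 6.57 to 13.0% (median 9.04%) in the WT libraries. The ETR2-type receptor made up 23.0 to 36.1% in Cmnor, 46.4 to 70.0% in CmNOR/Cmnor and 50.7 to 68.0% in WT. Neither range in Cmnor overlapped that of another genotype, while those of CmNOR/Cmnor and WT overlapped in both cases. These shares are given as a description, with no test. The receptor sums averaged 356, 169, 424 and 305 FPKM in Cmnor at 33, 36 and 39 DAP and after storage, 298, 167, 127 and 165 FPKM in the heterozygote, and 227, 137, 166 and 165 FPKM in WT.

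EIN2 (MELO3C014230.2, chromosome 8, 31341430 to 31347482, minus strand), the single gene of its kind here and the step between receptors and nucleus, ran from 44.7 to 83.9 FPKM in Cmnor, from 42.1 to 91.6 FPKM in CmNOR/Cmnor and from 48.1 to 72.1 FPKM in WT over the 4 stages. In CmNOR/Cmnor EIN2 was above WT at all 3 stages on the plant without overlap, by 0.31, 0.32 and 0.31 on the log2 scale (SE 0.09; adjusted p = 0.0127, 0.0137 and 0.0121), kept under all 3 scalings. Each call depended on single libraries: it was lost at 33 DAP without replicate 3 of WT or replicate 1 or 2 of CmNOR/Cmnor (adjusted p up to 0.0651), at 36 DAP without replicate 2 of either genotype (up to 0.0569), and at 39 DAP without replicate 2 of WT or replicate 1 of CmNOR/Cmnor (up to 0.0651). In Cmnor the differences from WT were 0.21 at 33 DAP (adjusted p = 0.0477) and 0.33 after storage (adjusted p = 0.00202), and both turned negative under all 3 scalings. At 36 DAP the difference was -0.11 (95% interval -0.30 to 0.07) and at 39 DAP 0.12 (-0.06 to 0.31), neither called as deposited. EIN2 was called lower at 36 DAP under all 3 scalings, and at 39 DAP under the median and trimmed mean scalings. The call at 33 DAP as deposited was also lost without any 1 of 21 of the 36 libraries (log2 0.18 to 0.25, adjusted p up to 0.14).

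EIN3 (MELO3C015633.2, chromosome 2, 3609054 to 3612730, minus strand), the nuclear transcription factor that switches on ethylene-responsive genes, was the other member with all 12 Cmnor libraries above all 24 others. Its Cmnor values were 385, 351 and 391 FPKM at 33 DAP, 281, 247 and 237 at 36 DAP, 284, 216 and 245 at 39 DAP, and 376, 327 and 359 after storage. The heterozygous fruit held 184, 167 and 191 FPKM at 33 DAP, 176, 183 and 178 at 36 DAP, 154, 149.5 and 151 at 39 DAP, and 78.5, 104 and 98.6 after storage. The parental line held 154, 134 and 146 FPKM at 33 DAP, 152, 157 and 164 at 36 DAP, 150.2, 146 and 142 at 39 DAP, and 108, 96.6 and 100.5 after storage. The lowest Cmnor library, at 216 FPKM, lay above the highest library of the other genotypes, at 191 FPKM.

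The fold of EIN3 in Cmnor over WT was 2.60 ± 0.23 (SD) at 33 DAP, 1.62 ± 0.16 at 36 DAP, 1.70 ± 0.24 at 39 DAP and 3.48 ± 0.31 after storage. The log2 differences were 1.37, 0.69, 0.75 and 1.79 (limma, SE 0.09), with adjusted p of 1.56e-13, 1.42e-07, 2.85e-08 and 3.94e-16. They were called higher under every scaling at 33 and 39 DAP and after storage, while at 36 DAP the call was lost under the median and trimmed mean scalings. In CmNOR/Cmnor the gene was higher than in WT at 33 DAP by 0.32 (adjusted p = 0.0113), a call lost without replicate 2 of WT or replicate 3 of CmNOR/Cmnor (adjusted p up to 0.0758). The other stages gave 0.18, 0.05 and -0.12 with no call. EIN3 made up 44.5 to 59.6% of the summed FPKM of the 3 EIN3/EIL genes in Cmnor, 34.6 to 44.6% in CmNOR/Cmnor and 36.4 to 42.0% in WT. The lowest Cmnor and the highest CmNOR/Cmnor libraries overlapped slightly on this measure, at different stages.

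EIL1 (MELO3C019931.2, chromosome 3, 21966410 to 21970114, minus strand), which acts alongside EIN3 in Arabidopsis, had the highest mean of the 10 genes and a narrow range. It ran from 225 to 292 FPKM in Cmnor, 135 to 247 FPKM in CmNOR/Cmnor and 146 to 251 FPKM in WT. Its differences between Cmnor and WT were 0.33, 0.20 and 0.15 at 33, 36 and 39 DAP (SE 0.06; adjusted p = 1.39e-05, 0.00365 and 0.0279), and all 3 turned negative under every scaling. The last of these was lost without replicate 1 or 3 of either genotype at 39 DAP (log2 0.12 to 0.18, adjusted p up to 0.0959). After storage it stood at 258, 225 and 246 FPKM in Cmnor, 135, 151 and 149 in the heterozygote, and 158, 146 and 149 in WT. The Cmnor libraries of that stage lay above the rest by 0.69 on the log2 scale against WT (adjusted p = 2.49e-11), positive under every scaling but not called under the median and trimmed mean scalings. No stage gave a call for EIL1 in CmNOR/Cmnor against WT.

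EIL3 (MELO3C015210.2, chromosome 2, 5964613 to 5967311, plus strand), a more distant relative of EIN3 that is tied to sulphur nutrition in Arabidopsis, was the least abundant member, at 10.7 to 20.9 FPKM over all libraries. After storage it stood at 20.8, 20.9 and 19.5 FPKM in Cmnor, 13.1, 11.4 and 13.9 in the heterozygote and 10.7, 12.1 and 11.4 in WT. Cmnor was higher than WT at that stage by 0.79 (SE 0.06; adjusted p = 2.21e-12) without overlap, and the call held under all 3 scalings. At 33 and 36 DAP the differences of 0.44 and 0.36 (adjusted p = 2.06e-07 and 5.62e-06) turned negative under the median and trimmed mean scalings, at 36 DAP also under the upper quartile. At 39 DAP the difference was 0.06 (95% interval -0.06 to 0.18), and it turned negative under all 3 scalings. In CmNOR/Cmnor the gene was higher than in WT at 33 DAP by 0.18 (adjusted p = 0.0261), a call lost without replicate 2 or 3 of either genotype (adjusted p up to 0.126).

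**Figure D2:**
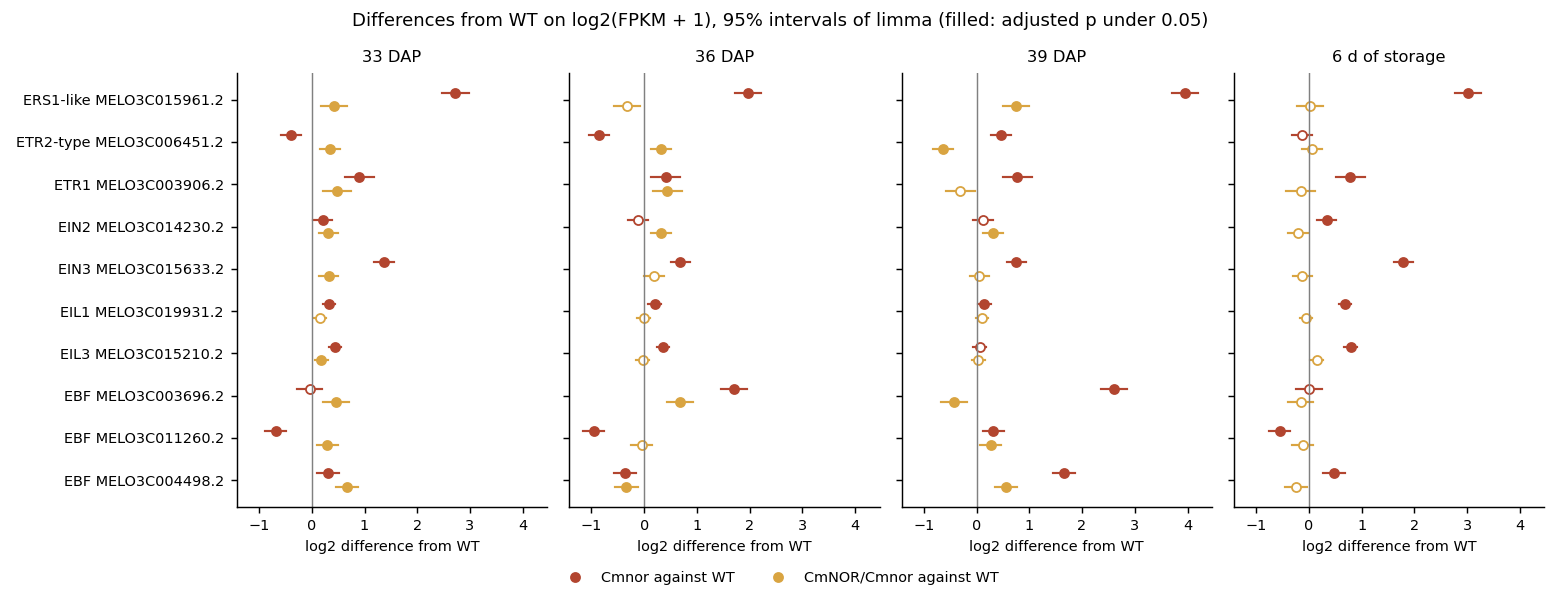
Log2 difference from WT of each of the 10 genes (rows) at each stage (panels) for Cmnor (red) and CmNOR/Cmnor (yellow), as deposited, with 95% limma intervals and filled points at an adjusted p under 0.05. ERS1 in Cmnor lies at 1.97 to 3.95, the CmNOR/Cmnor points all lie between -0.64 and 0.75, and none of those after storage is filled.

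The 3 EBF genes did not move as 1 group. The first, MELO3C003696.2 (chromosome 4, 3368525 to 3371560, plus strand, matched to Arabidopsis EBF1), stood in Cmnor at 157, 148 and 164 FPKM at 33 DAP, 130.3, 124 and 129.7 at 36 DAP, 278, 328 and 317 at 39 DAP, and 79.3, 68.0 and 77.3 after storage. The CmNOR/Cmnor libraries read 237, 199 and 232 FPKM at 33 DAP, 60.9, 71.5 and 57.0 at 36 DAP, 38.0, 34.8 and 37.4 at 39 DAP, and 49.2, 76.3 and 80.2 after storage. The WT libraries read 156, 168 and 159.5 FPKM at 33 DAP, 37.4, 42.8 and 36.1 at 36 DAP, 51.3, 48.0 and 50.2 at 39 DAP, and 81.2, 77 and 67.6 after storage. Cmnor and WT overlapped at 33 DAP and after storage and were far apart at 36 and 39 DAP, when the gene was low in WT and CmNOR/Cmnor.

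For this EBF gene the differences between Cmnor and WT were 1.70 at 36 DAP and 2.60 at 39 DAP on the log2 scale (SE 0.12; adjusted p = 5.98e-13 and 5.62e-17), 3.30 ± 0.32-fold and 6.17 ± 0.56-fold, and were called higher under every scaling. They were -0.04 at 33 DAP (95% interval -0.29 to 0.20) and -0.01 after storage (-0.25 to 0.24) as deposited, and both of these were called lower under each of the 3 scalings. In CmNOR/Cmnor it was higher than in WT by 0.46 at 33 DAP and 0.69 at 36 DAP (adjusted p = 0.00555 and 0.000134), kept under the 3 scalings. At 39 DAP it was lower by 0.43 in CmNOR/Cmnor (adjusted p = 0.00826), a call that not all 3 scalings kept. None of these 3 calls was lost without any 1 library.

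The second EBF gene, MELO3C011260.2 (chromosome 3, 27381318 to 27385215, minus strand, also matched to EBF1), was called lower in Cmnor at 3 of the 4 stages, as deposited and under every scaling. The mutant held 129.7, 114 and 139 FPKM at 33 DAP, 142, 125 and 124 at 36 DAP, 271, 283 and 302 at 39 DAP, and 153, 140.0 and 136 after storage. For the heterozygote the values were 284, 247 and 227 FPKM at 33 DAP, 225, 253 and 263 at 36 DAP, 281, 299 and 252 at 39 DAP, and 161, 212 and 209.7 after storage. For WT the values were 212, 193 and 211 FPKM at 33 DAP, 243, 273 and 247 at 36 DAP, 242, 218 and 227 at 39 DAP, and 210.4, 215 and 204 after storage. The Cmnor libraries at 33 DAP, 36 DAP and after storage were all below those of both other genotypes at the same stage.

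It fell by 0.69, 0.96 and 0.55 on the log2 scale in Cmnor against WT at 33 DAP, 36 DAP and after storage (SE 0.10; adjusted p = 4.84e-07, 1.17e-09 and 1.44e-05). At 39 DAP it was higher by 0.32 (adjusted p = 0.00573), which turned to -0.08 and -0.05 under the median and trimmed mean scalings. In CmNOR/Cmnor it was higher than in WT by 0.29 at 33 DAP and 0.27 at 39 DAP (adjusted p = 0.0309 and 0.0438), kept under the 3 scalings. Both calls were lost without replicate 2 or 3 of WT or replicate 1 or 2 of CmNOR/Cmnor at the stage, with adjusted p of up to 0.204 and 0.192.

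The last EBF gene, MELO3C004498.2 (chromosome 5, 28031262 to 28048529, minus strand, described as EBF1-like and matched to Arabidopsis EBF2), stood in Cmnor at 81.1, 78.0 and 86.5 FPKM at 33 DAP, 67.5, 68.6 and 63.3 at 36 DAP, 177, 200.2 and 189.6 at 39 DAP, and 60.1, 45 and 54.5 after storage. Heterozygous libraries gave 112, 97.7 and 109 FPKM at 33 DAP, 62.3, 66.9 and 73.9 at 36 DAP, 89.1, 85.8 and 88.4 at 39 DAP, and 25, 35.8 and 36.4 after storage. Libraries of WT gave 70.1, 64.3 and 63.7 FPKM at 33 DAP, 80.05, 91.6 and 85.4 at 36 DAP, 60.3, 55.1 and 62.2 at 39 DAP, and 37.5, 37.8 and 38.5 after storage. Its highest libraries of any group were the 3 of Cmnor at 39 DAP.

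At 39 DAP this gene was 3.19 ± 0.28-fold higher in Cmnor than in WT (log2 1.66, SE 0.10, adjusted p = 3.93e-14), and at 36 DAP it was lower by 0.36 on the log2 scale (adjusted p = 0.00308), both kept under every scaling. The positive differences of 0.31 at 33 DAP and 0.47 after storage (adjusted p = 0.0109 and 0.000241) turned negative under the median and trimmed mean scalings, at 33 DAP also under the upper quartile. In CmNOR/Cmnor it was higher than in WT by 0.67 at 33 DAP and 0.56 at 39 DAP (adjusted p = 1.48e-05 and 0.00013), kept under the 3 scalings and without any 1 library. At 36 DAP it was lower in CmNOR/Cmnor by 0.34 (adjusted p = 0.023), a call that not all 3 scalings kept and that was lost without replicate 2 or 3 of WT or replicate 1 or 2 of CmNOR/Cmnor (log2 -0.40 to -0.28, adjusted p up to 0.118).

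Set against the summed FPKM of the 3 EIN3/EIL genes in the same library, the summed FPKM of the 3 EBF genes was a ratio of 0.577 ± 0.013 (SD, n = 3 libraries) in Cmnor, 1.42 ± 0.10 in CmNOR/Cmnor and 1.24 ± 0.05 in WT at 33 DAP. At 36 DAP it was 0.594 ± 0.020 in Cmnor, 0.880 ± 0.061 in CmNOR/Cmnor and 0.924 ± 0.076 in WT. At 39 DAP it was 1.55 ± 0.22 in Cmnor, 0.996 ± 0.081 in CmNOR/Cmnor and 0.887 ± 0.048 in WT. After storage it was 0.439 ± 0.009 in Cmnor, 1.17 ± 0.11 in CmNOR/Cmnor and 1.23 ± 0.06 in WT. The Cmnor ratio was thus the lowest of the 3 genotypes at 33 DAP, 36 DAP and after storage and the highest at 39 DAP, and at no stage did the Cmnor libraries overlap those of the others.

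**Figure D3:**
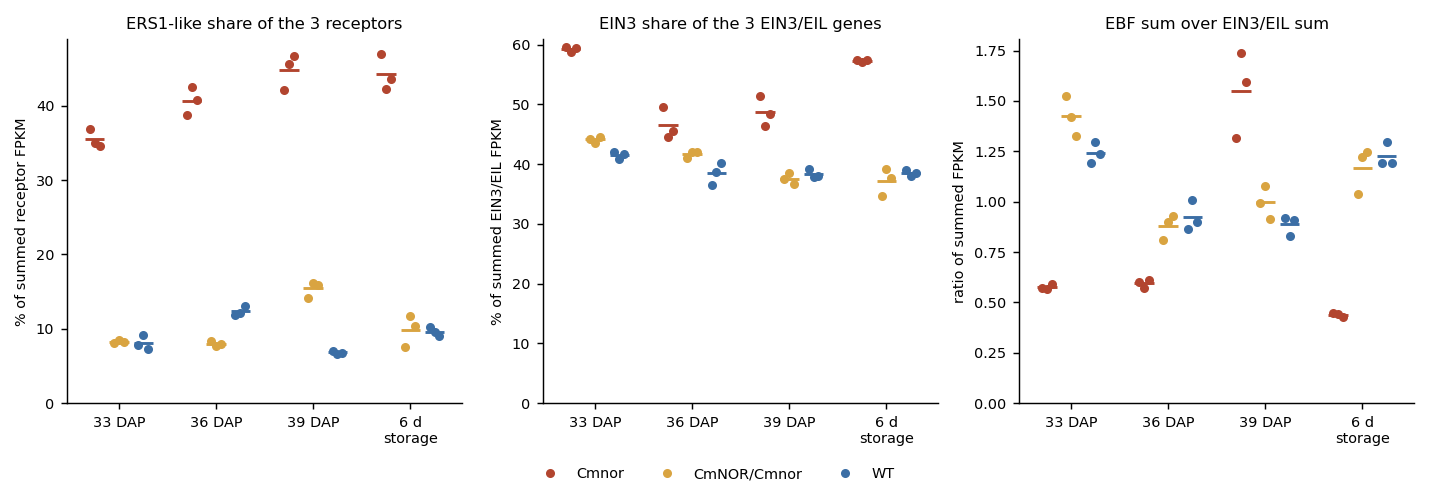
Within-library measures for each library (points) and group mean (bars) by stage and genotype, with axes from 0, showing the ERS1 share of the summed FPKM of 3 receptors, the EIN3 share of the 3 EIN3/EIL genes, and the ratio of summed EBF to summed EIN3/EIL FPKM. Cmnor (red) holds 34.6 to 46.9% in the first panel against at most 16.2% in CmNOR/Cmnor (yellow) and 13.0% in WT (blue), and in the last panel its mean is 1.55 at 39 DAP against 0.439 to 0.594 at the other stages.

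Counted over the 4 stages, 34 of 40 values were called in Cmnor against WT, 28 higher and 6 lower. At the same thresholds 62.7% of all tests in these comparisons were called (44.6% higher and 18% lower; 63.5, 62.8, 62.5 and 61.8% by stage), and 82.2% of those among genes averaging 10 FPKM or more. The number of calls thus does not set the members apart from other expressed genes. The 6 lower values were the ETR2-type receptor at 33 and 36 DAP, MELO3C011260.2 at 33 DAP, 36 DAP and after storage, and MELO3C004498.2 at 36 DAP. The split between higher and lower became 16 to 12 under the upper quartile, 13 to 20 under the median and 14 to 16 under the trimmed mean scaling. As deposited and under all 3 scalings alike, 13 values were called higher and 6 lower. The 9 values that also reached a 2-fold change, the criterion used in the study, were all higher in Cmnor as deposited: ERS1 at all 4 stages, EIN3 at 33 DAP and after storage, MELO3C003696.2 at 36 and 39 DAP and MELO3C004498.2 at 39 DAP. The share of all tests that reached it was 28.9%.

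**Figure D4:**
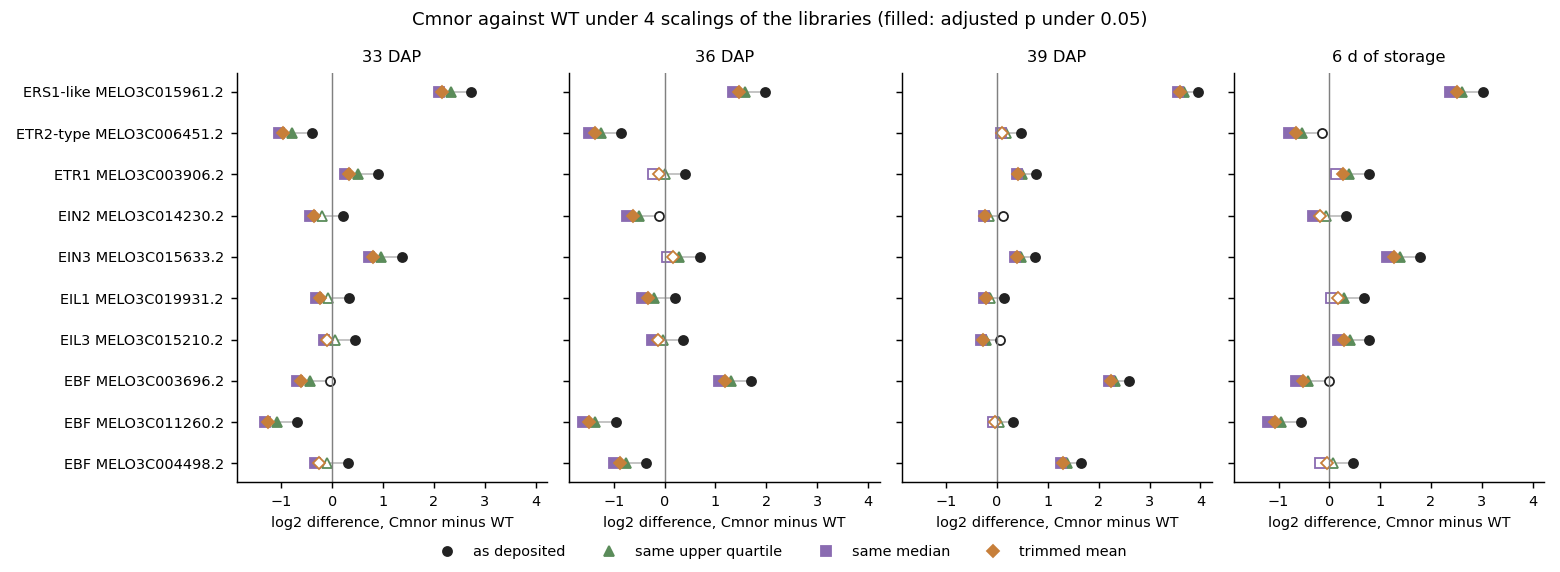
Log2 difference between Cmnor and WT of each of the 10 genes (rows) at each stage (panels) with the FPKM as deposited (black circles) and with libraries set to the same upper quartile (green), median (purple) or trimmed mean (orange), filled at an adjusted p under 0.05. Every point moved left under the scalings, and small positive differences such as that of EIL1 at 33 DAP, 0.33 as deposited, moved to the other side of 0, to -0.07, -0.31 and -0.24.

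In CmNOR/Cmnor, 20 of 40 values were called against the same WT libraries, 17 higher and 3 lower, and none reached a 2-fold change, which 2.48% of all tests did. Over all tests 17.4% were called, 6.64% higher and 10.8% lower, and among genes averaging 10 FPKM or more 29.8% were called. The members were called more often than these backgrounds, mostly in the direction that was the less frequent one over all genes. The calls numbered 9 at 33 DAP, all higher, where 20.3% of all genes were called, 5 at 36 DAP (15.9%), 6 at 39 DAP (22.6%) and 0 after storage (11%). Of the 20 calls, 18 held under all 3 scalings. The fruit compared were of equal DAP, and the part of the later ripening of CmNOR/Cmnor in these calls was not tested. Each comparison of a genotype with WT at a stage uses the same 3 WT libraries, and 12 of the 20 calls were lost without some single library, each named above. After storage, limma with Benjamini-Hochberg adjustment called 0 of 10 members, with a lowest adjusted p of 0.116, whereas 3 had an unadjusted p under 0.05 and each of the 3 scalings called 1, higher.

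Between Cmnor and CmNOR/Cmnor, 31 of 40 values were called, 23 higher and 8 lower. Of all tests 62.5% were called, 46.5% higher and 16.1% lower, and 82.7% of those of genes averaging 10 FPKM or more. The split became 15 to 20, 11 to 23 and 13 to 20 under the upper quartile, median and trimmed mean scalings. Of the 31, 12 reached a 2-fold change, 11 of them higher in Cmnor, where 28.9% of all tests did. They were ERS1 at all 4 stages (log2 2.31, 2.28, 3.20 and 2.99) and EIN3 at 33 DAP and after storage (1.05 and 1.91). The others were MELO3C003696.2 at 36 and 39 DAP (1.01 and 3.03), the ETR2-type receptor at 36 and 39 DAP (-1.18 and 1.11), and ETR1 and MELO3C004498.2 at 39 DAP (1.09 each).

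On a line from WT at 0% to Cmnor at 100%, the heterozygote had a median place of 11.2% over the 34 values called between Cmnor and WT as deposited. It lay between them in 17 values, beyond WT in 14 and beyond Cmnor in 3, and nearer to WT than to Cmnor in 27. Against the midpoint between WT and Cmnor, 26 of 40 values were called, 9 above and 17 below, where 51% of all tests were called, 12% above and 38.9% below, and 71.4% of those of genes averaging 10 FPKM or more. Under the upper quartile, median and trimmed mean scalings, 24 of 28, 29 of 33 and 27 of 30 called values were nearer to WT, with median places of 1.53, -5.46 and -11.5%. Over all genes with a called difference of at least 0.3 between Cmnor and WT, 12822 of 14362, 12989 of 14200, 12332 of 14094 and 13122 of 13906 were nearer to WT at 33, 36 and 39 DAP and after storage. Among members by the same rule these were 6 of 8, 6 of 8, 6 of 7 and 8 of 8, so that a place near WT does not set the members apart. The split around the midpoint became 18 to 9, 21 to 8 and 19 to 8 under the upper quartile, median and trimmed mean scalings. ERS1 was below the midpoint at all 4 stages under every scaling, and EIN3 after storage. EIN2 was above it at 33, 36 and 39 DAP under every scaling.

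Over the stages on the plant, each genotype is described by its own steps, and whether a single step differed between genotypes was not tested. From 33 to 36 DAP ERS1 fell by 0.87 in Cmnor and by 0.84 in CmNOR/Cmnor, while its change in WT was -0.11 and not called. In the same step the ETR2-type receptor fell by 1.41 in Cmnor, 0.98 in CmNOR/Cmnor and 0.95 in WT on the log2 scale, and ETR1 fell by 1.0, 0.56 and 0.51 in the same genotypes. The last of these was lost without replicate 2 of WT at 36 DAP (log2 -0.30, adjusted p = 0.0739). From 36 to 39 DAP the log2 change of ERS1 was 1.45 in Cmnor, 0.53 in CmNOR/Cmnor and -0.54 in WT, and that of the ETR2-type receptor 1.74, -0.55 and 0.41, each called as deposited. The 3 scalings kept these calls other than the rise of the ETR2-type receptor in WT. Of the 60 changes between neighbouring stages, 40 were called, 16 up and 24 down. Of all tests 31.3% were called, 16.8% up and 14.6% down, and 49.6% of those of genes averaging 10 FPKM or more.

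All 3 EBF genes rose from 36 to 39 DAP in Cmnor, by 1.25 (MELO3C003696.2), 1.13 (MELO3C011260.2) and 1.49 (MELO3C004498.2), with adjusted p of 1.69e-09, 2.61e-10 and 2.84e-12, under every scaling. In CmNOR/Cmnor the changes were -0.76, 0.17 (not called) and 0.37, and in WT 0.36, -0.15 (not called) and -0.53. An earlier fall belonged to MELO3C003696.2 in the other genotypes: from 33 to 36 DAP it fell by 1.80 in CmNOR/Cmnor and by 2.03 in WT (adjusted p = 3.92e-12 and 8.44e-13), whereas the change in Cmnor was -0.29 (adjusted p = 0.0547). The rise of 0.36 in WT was lost without replicate 1 or 3 of WT at either stage (adjusted p up to 0.091), and the rise of 0.37 in CmNOR/Cmnor without its replicate 1 at 36 DAP (adjusted p = 0.0586). The mean sum of heat shock genes was highest in WT at 36 DAP (8230 FPKM), which is one end of each WT change given here. It was next highest in Cmnor at 36 DAP (5297 FPKM, against 1706 FPKM at 33 DAP and 2721 FPKM at 39 DAP). That group is one end of each Cmnor change given here.

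The change from 33 to 39 DAP differed between Cmnor and WT, tested as an interaction, for 7 of 10 members, where 44.6% of all genes were called. The share among genes averaging 10 FPKM or more, which was the higher one in the comparisons above, is not given for this test. Under every scaling, the signed log2 change of 5 members was higher in Cmnor than in WT: MELO3C003696.2 by 2.64, MELO3C004498.2 by 1.35, ERS1 by 1.22, MELO3C011260.2 by 1.0 and the ETR2-type receptor by 0.87. Between CmNOR/Cmnor and WT, 3 of 10 were called (19% of all genes), all towards lower and under every scaling: the ETR2-type receptor (-0.98), MELO3C003696.2 (-0.89) and ETR1 (-0.79).

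**Figure D5:**
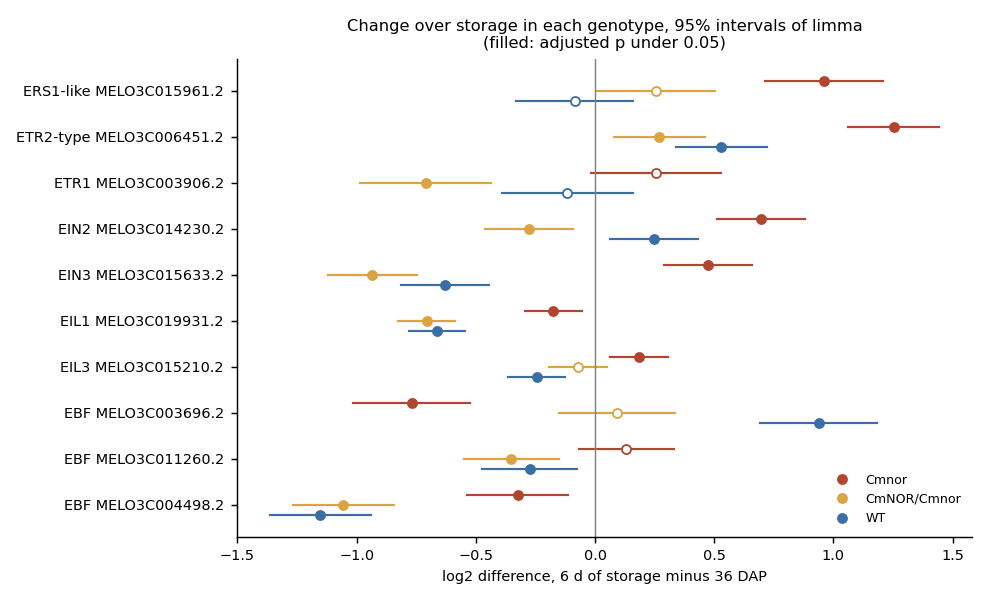
Log2 change over storage (6 d of storage minus 36 DAP) of each of the 10 genes (rows) in Cmnor (red), CmNOR/Cmnor (yellow) and WT (blue), as deposited, with 95% limma intervals and filled points at an adjusted p under 0.05. EIN3 lies at 0.47 in Cmnor, -0.93 in CmNOR/Cmnor and -0.63 in WT, and MELO3C003696.2 at -0.77, 0.09 and 0.94.

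Over 6 d of storage after harvest at 36 DAP, EIN3 changed in opposite directions between the genotypes. Against 36 DAP it rose by 0.47 in Cmnor (adjusted p = 7.41e-05) and fell by 0.93 in CmNOR/Cmnor and by 0.63 in WT (adjusted p = 2.26e-09 and 2.11e-06), under every scaling. The difference of the change between Cmnor and WT was 1.10 (adjusted p = 5.25e-08). EIL1 fell in all 3 genotypes, by 0.17 in Cmnor, 0.71 in CmNOR/Cmnor and 0.66 in WT. The smaller fall in Cmnor was not kept by all scalings and was lost without replicate 2 of Cmnor at 36 DAP or after storage (adjusted p up to 0.113). EIL3 rose by 0.19 in Cmnor and fell by 0.24 in WT (adjusted p = 0.0103 and 0.00132), the first of them lost without replicate 2 of Cmnor at 36 DAP (adjusted p = 0.062).

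Among receptors, ERS1 rose by 0.96 over storage in Cmnor (adjusted p = 1.37e-07), against changes of 0.25 in CmNOR/Cmnor (95% interval 0.01 to 0.50, adjusted p = 0.107) and -0.09 in WT (adjusted p = 0.71). The ETR2-type receptor rose in all 3 genotypes, by 1.25, 0.27 and 0.53, the second of these lost without replicate 3 of CmNOR/Cmnor at either stage (adjusted p up to 0.109). ETR1 fell by 0.71 in CmNOR/Cmnor (adjusted p = 8.56e-05), and its changes of 0.26 in Cmnor and -0.12 in WT were not called. EIN2 changed by 0.70 in Cmnor, -0.28 in CmNOR/Cmnor and 0.25 in WT. Its call in CmNOR/Cmnor was lost without replicate 2 of CmNOR/Cmnor at 36 DAP or replicate 1 after storage (adjusted p up to 0.251), and its call in WT without replicate 1 or 2 at either stage (up to 0.107).

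Of the EBF genes, MELO3C003696.2 fell by 0.77 over storage in Cmnor and rose by 0.94 in WT (adjusted p = 4.34e-06 and 2.93e-07), with 0.09 in CmNOR/Cmnor (adjusted p = 0.694). Its change was lower than that of WT by 1.71 in Cmnor and by 0.85 in CmNOR/Cmnor (adjusted p = 3.01e-09 and 0.00191), under every scaling. MELO3C004498.2 fell by 0.32 in Cmnor, 1.06 in CmNOR/Cmnor and 1.15 in WT, the first of these lost without replicate 2 of stored Cmnor (adjusted p = 0.111). MELO3C011260.2 changed by 0.13 (not called), -0.35 and -0.27. Its call in CmNOR/Cmnor was lost without replicate 1 of stored CmNOR/Cmnor (adjusted p = 0.0758), and its call in WT without replicate 2 at 36 DAP or replicate 1 or 3 after storage (up to 0.122).

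In all, 23 of the 30 storage changes were called, 9 up and 14 down, against 40.3% of all tests (19.8% up and 20.6% down) and 62.7% of those of genes averaging 10 FPKM or more. The split became 11 to 10, 11 to 9 and 11 to 10 under the upper quartile, median and trimmed mean scalings. The change over storage differed from that of WT in 9 of 10 members in Cmnor (45.9% of all genes) and in 2 of 10 in CmNOR/Cmnor (6.6% of all genes). For these differences the share among genes averaging 10 FPKM or more is not given. In the other comparisons that share was above the one over all genes. The WT libraries at 36 DAP, the lowest in depth and with the highest mean sum of heat shock genes, enter each of these differences. The Cmnor libraries at 36 DAP, with the next highest mean sum, enter each change over storage in Cmnor. The rind and cuticle list also moved with storage, to a mean sum of 21.7 FPKM against 67.0 FPKM at 36 DAP in Cmnor, 84.7 against 7.02 FPKM in CmNOR/Cmnor and 197 against 8.89 FPKM in WT, and its part in these changes was not tested.

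Ordered by level over the 12 groups, most neighbours were not separated. For the members from rank 1 to rank 10, in 4, 2, 4, 6, 5, 6, 2, 2, 6 and 2 of 11 neighbouring pairs of groups did the libraries not overlap. The same counts were not made over all genes, so they do not set the members apart. The highest group mean of ERS1 was 16.8 times its lowest, the largest such ratio of the 10 genes, with 189 FPKM in Cmnor at 39 DAP and 11.3 FPKM in WT at 39 DAP. EIL1 ran from 145 FPKM in stored CmNOR/Cmnor to 274 FPKM in Cmnor at 36 DAP.

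Over the 12 group means, which share genotypes, stages and a common scale, EIN3 and EIL3 had a Pearson correlation of log2(FPKM + 1) of 0.905, and over the 8 means without Cmnor 0.787. EIN3 and ERS1 had 0.846 over all 12 and 0.194 without Cmnor. Other pairs ran the other way: MELO3C003696.2 and the ETR2-type receptor had 0.511 over all 12 and 0.959 without Cmnor, and EIN3 and MELO3C004498.2 0.475 and 0.918. By the same measure over 15406 genes and the 12 means, the gene most like the ETR2-type receptor was MELO3C030350.2, described as a beta-amyrin 11-oxidase (0.933), and the gene most like EIN2 was MELO3C017060.2 (0.899). The gene most like MELO3C011260.2 was MELO3C032497.2, a cysteine protease of the SAG39 type (0.896). MELO3C017060.2 and MELO3C032497.2 averaged only 3.86 and 1.65 FPKM. Each of these values is the highest of many correlations over only 12 means, so it is a description and does not show a shared regulation.

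Other genes of the pathway, taken by their descriptions, were set beside the members. CTR1, the kinase held active by empty receptors, had 4 described genes, of which Cmnor, set against WT, had 1, 1, 0 and 0 higher and 1, 0, 2 and 0 lower at 33, 36 and 39 DAP and after storage. The single RTE1 gene (MELO3C016866.2), whose product promotes ETR1 in Arabidopsis, differed between Cmnor and WT by -0.96, 0.12 (not called), 0.43 and -1.95 at these stages. The single RAN1 gene (MELO3C007027.2), a copper transporter that supplies the receptors' metal in Arabidopsis, differed by 0.23, 0.57, -0.40 and 0.52. The values of CTR1, RTE1 and RAN1 are as deposited only. Some positive differences of similar size in the members turned negative under the scalings. Of 110 genes described as ethylene-responsive transcription factors, 109 were tested, and which of them EIN3 acts on was not tested. In Cmnor 60, 68, 78 and 67 were higher and 17, 14, 9 and 6 lower. The median log2 differences of these factor genes were 0.44, 0.74, 0.81 and 0.70, against 0.21, 0.17, 0.06 and 0.14 over all genes tested. The median over genes averaging 1 FPKM or more was 0.52, 0.49, 0.31 and 0.45. Of all genes tested, 48.1, 46.3, 39.6 and 44.5% were called higher and 15.5, 16.5, 22.9 and 17.4% lower. Under the 3 scalings 51 to 54, 59 to 62, 71 and 56 to 64 of the factor genes were higher and 19 to 23, 15 to 18, 10 to 11 and 8 to 9 lower, an alternative chosen after seeing the data. In CmNOR/Cmnor 10, 5, 9 and 3 of them were higher and 14, 22, 23 and 11 lower than in WT, where 8.66, 6.9, 8.2 and 2.81% of all genes were higher and 11.7, 8.96, 14.4 and 8.16% lower.

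For ethylene synthesis, 4 genes matched ACC synthase and 17 matched ACC oxidase by description. The second list takes in genes described as ACC oxidase homologs, such as MELO3C026436.2. Its counts are therefore not counts of genes known to make ethylene. Of the genes matching ACC oxidase, Cmnor had 8, 7, 9 and 9 higher and 5, 5, 5 and 4 lower than WT at these stages, beside the shares of all genes given above. Under the 3 scalings the higher ones became 5 to 6, 5 to 6, 6 to 7 and 6 to 7, and the lower ones 7, 6 to 7, 5 and 5, so that at 33 and 36 DAP the higher ones no longer outnumbered the lower ones. The most abundant, MELO3C014437.2, which makes ethylene from ACC, stood at 128 to 164, 689 to 875, 228 to 638 and 53.2 to 128 FPKM in Cmnor and at 11616 to 13002, 7209 to 8553, 8930 to 10828 and 10745 to 11725 FPKM in WT, without overlap, with log2 differences of -6.44, -3.31, -4.62 and -7.08. No stage gave a call for it in CmNOR/Cmnor. Of the ACC synthase genes, which make ACC, Cmnor had 1 higher than WT at each stage and 3, 1, 1 and 1 lower, the same under each scaling. The heterozygote had 3, 0, 0 and 0 higher and 0, 1, 1 and 0 lower than WT. The ACC synthase gene MELO3C021182.2 stood at 0.284 to 1.79 FPKM in the Cmnor libraries and differed from WT by -8.03, -4.94, -6.30 and -5.42 on the log2 scale. In CmNOR/Cmnor it fell by 2.22 at 36 DAP and 2.07 at 39 DAP (adjusted p = 5.02e-06 and 6.47e-06), with 0.83 at 33 DAP, at the threshold (adjusted p = 0.05), and -0.07 after storage (not called). The ACC synthase gene higher in Cmnor at all 4 stages was MELO3C016340.2. It stood at 4.96 to 8.38, 13.7 to 17.1, 9.57 to 31.9 and 1.12 to 1.75 FPKM in Cmnor, against 0.643 to 1.30 FPKM at 33 DAP and at most 0.134 FPKM at the later stages in WT. Its log2 differences were 1.93, 4.03, 4.15 and 1.17.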

How the data were processed

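Flesh RNA of 36 libraries (3 genotypes, 4 stages, 3 libraries a group) was sequenced by the authors on an Illumina platform after TruSeq preparation and aligned to the melon DHL92 genome, version v3.6.1, with HISAT2. The deposited table holds FPKM per gene as the authors made it, with no raw counts. The labels also name TopHat2, StringTie and Cufflinks without a role, while the counting tool, strand setting and treatment of reads with several matches are not stated by the labels or the methods. Gene positions are those of the deposited table. FPKM holds each library to its own total, so a few very abundant genes can lower or raise all others.

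Of 25121 named genes (1 line without an identifier was left out), 24901 above 0 in any library were tested on log2(FPKM + 1) in 1 limma 3.58.1 model (R 4.3.3; lmFit, eBayes with trend) of 12 groups, with Benjamini-Hochberg adjustment within each of 29 contrasts and a threshold of 0.05. A fold change on this scale understates the change of low genes. Folds with SD are ratios of group means of FPKM. Tables and figures used Python 3.11.15 with pandas 2.3.3, numpy 2.4.6 and matplotlib 3.10.9. On simulated data with 24901 genes, the model called 89 to 97 of 100 genes changed 2-fold and 70 to 79 of 100 changed 1.5-fold in each comparison with WT. The changed genes were drawn from those averaging 10 FPKM or more, with normal noise and no shift common to all genes. The recovery therefore does not cover lower genes or the shift seen in Cmnor.

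All 10 members are named by rule, with the genes of their pathway lists. The members and lists were chosen with earlier results of these data known. Alternatives were a pseudocount of 0.1, a filter of 1 FPKM in 3 libraries, 3 scalings over genes averaging 1 FPKM or more, a replicate block, fits of only the groups compared, a threshold of 0.01, a 2-fold criterion, and leaving out each library. Replicates of a group correlated at 0.968 to 0.995, and 0 pairs of libraries were identical. Depth was estimated from the smallest steps of low FPKM values. Intervals cover the spread between libraries only.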

Additional observations from a re-analysis of the deposited data

Results flagged for a closer look

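The following differences between genotypes in the same change passed the adjusted threshold in a limma interaction test, on the log2(FPKM + 1) scale. The change over storage, 6 d of storage minus 36 DAP, taken with its sign, gave a difference of Cmnor minus WT of 0.49 for EIL1 (MELO3C019931.2), 0.41 for the EBF gene MELO3C011260.2, 1.10 for EIN3 (MELO3C015633.2), 0.72 for the ETR2-type receptor (MELO3C006451.2), 0.83 for the EBF gene MELO3C004498.2, 0.45 for EIN2 (MELO3C014230.2), 1.05 for ERS1 (MELO3C015961.2) and 0.43 for EIL3 (MELO3C015210.2). For the EBF gene MELO3C003696.2 the difference was -1.71. Of these 9, all but MELO3C011260.2 held under the 3 scalings, and that one was also lost without replicate 1 of stored Cmnor (adjusted p = 0.0501). In CmNOR/Cmnor the change over storage was lower than in WT for MELO3C003696.2 (-0.85) and EIN2 (-0.52), that of EIN2 not under every scaling.

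The change from 33 to 39 DAP taken with its sign, was higher in Cmnor than in WT for MELO3C003696.2 (2.64), MELO3C004498.2 (1.35), ERS1 (1.22), MELO3C011260.2 (1.0) and the ETR2-type receptor (0.87), and lower for EIN3 (-0.62) and EIL3 (-0.38). The values of EIN3 and EIL3 lost their call under at least 1 scaling. It was lower in CmNOR/Cmnor than in WT for the ETR2-type receptor (-0.98), MELO3C003696.2 (-0.89) and ETR1 (MELO3C003906.2, -0.79), under every scaling.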

How the results depend on the processing

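The scaling of the libraries decided more directions than any other choice. Of values called higher in Cmnor than in WT, these turned negative under the upper quartile, median and trimmed mean scalings. At 33 DAP, EIL1 gave -0.074, -0.31 and -0.24, MELO3C004498.2 -0.093, -0.33 and -0.26, and EIN2 -0.19, -0.43 and -0.36. At 36 DAP, EIL1 gave -0.21, -0.45 and -0.32 and EIL3 -0.025, -0.25 and -0.13. At 39 DAP, EIL1 gave -0.14, -0.25 and -0.22 and EIL3 -0.21, -0.31 and -0.28, EIL3 not having been called as deposited. After storage, EIN2 gave -0.071, -0.32 and -0.18. Under the median and trimmed mean scalings alone, EIL3 at 33 DAP gave -0.17 and -0.10, ETR1 at 36 DAP -0.22 and -0.10, MELO3C011260.2 at 39 DAP -0.077 and -0.049, and MELO3C004498.2 after storage -0.18 and -0.045. EIN2 at 39 DAP, not called as deposited, gave -0.26 and -0.24 under the same scalings. The cause was not tested.

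Counts of called values by comparison were 34 (Cmnor against WT), 20 (CmNOR/Cmnor against WT), 31 (Cmnor against CmNOR/Cmnor), 26 (midpoint), 23 (storage), 40 (ripening steps), 11 (storage interaction) and 10 (ripening interaction). With the 2-fold criterion they were 9, 0, 12, 5, 3, 8, 3 and 4, and at a threshold of 0.01 the 20 became 8, both by construction fewer. Without any 1 library they ranged over 32 to 34, 16 to 23, 30 to 33, 25 to 28, 21 to 23, 38 to 42, 10 to 12 and 10 to 11. Replicate numbers recur across groups. The median correlation of deviations was 0.00185 over 198 pairs of same-number libraries and 0.00542 over 396 pairs of other numbers. Single same-number pairs ran from -0.407 to 0.717. A median near 0 cannot show whether some of these libraries were handled together. With the replicate block the counts were 33, 20, 32, 26, 23, 40, 11 and 10. It kept 193 of 195 called values, whereas the upper quartile, median and trimmed mean scalings kept 159, 140 and 150, and fits of only the groups compared 177. Replicate 2 of Cmnor and of CmNOR/Cmnor at 33 DAP deviated together (r = 0.717), and without both 189 of the 195 were kept. A pseudocount of 0.1 and a filter of 1 FPKM in 3 libraries changed none of the 195. The deposited values carry no counts, so depth bounds only the lowest genes.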

Other observations

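The EIL4-like gene just outside the 10 (MELO3C017592.2) was listed at 0 in most Cmnor libraries and at no more than 0.0515 FPKM in any of them, against 0.115 to 0.742 FPKM in the WT libraries. Limma called it lower in Cmnor than in WT at all 4 stages, by -0.31, -0.32, -0.61 and -0.24 on the log2(FPKM + 1) scale, with a largest adjusted p of 0.0396. Of all genes tested, 15.5, 16.5, 22.9 and 17.4% were called lower. These levels rest on few fragments, as 1 fragment on 1 kb was worth 0.0271 to 0.0563 FPKM. The values are as deposited only. The EBF1-like gene below it (MELO3C010335.2) was above 0 only in some Cmnor libraries at 33 and 39 DAP, at no more than 0.0753 FPKM.

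Among ethylene-responsive factor genes, as deposited, the RAP2-12-like gene MELO3C024315.2 was higher in Cmnor than in WT at all 4 stages, by 1.37, 1.01, 1.58 and 1.59 on the log2 scale, and the RAP2-3-like gene MELO3C021306.2 by 2.39 at 33 DAP, 0.48 at 39 DAP and 2.24 after storage, with 0.08 (not called) at 36 DAP. In Arabidopsis both belong to a group of factors that respond to low oxygen.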
